A study of Homo sapiens with 18 samples.

Results

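Cholesterol and fatty acid synthesis was followed through 29 listed genes in 18 colorectal cancer cell lines. The genes were 18 enzymes of the sterol arm, 7 enzymes of the fatty acid arm, and a group of 4 with the regulators INSIG1, SREBF1 and SREBF2 and the sterol carrier STARD4. For each gene the value is that of 1 probe set, the brightest on average over the lines among those annotated to no other gene. This gave values for 28 of the 29 genes, out of 19774 genes with such a probe set; FDFT1, which makes squalene, was not analysed here. Total RNA of each line was measured on 1 array, and the values are log2 intensities, so a difference of 1 unit is 2-fold. RPMI-1640 was the medium of 8 lines (HCT116, KM12, RCM1, SNUC1, LS513, COLO320HSR, MDST8 and NCIH716), with serum, antibiotics, added glucose and sodium pyruvate. DMEM/F-12 was the medium of 10 lines (OUMS23, CAR1, HUTU80, CL40, HT55, LS180, RKO, SW1463, SW48 and SW948), with serum and antibiotics. Each line was labelled CRC and is a single established line of its own genotype; HUTU80 is otherwise known as a duodenal line. No line was measured again, so line, culture and array cannot be told apart.

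Cells build cholesterol from acetyl-CoA through mevalonate and squalene, and build fatty acids from the same acetyl-CoA through malonyl-CoA. Both routes are controlled by the SREBP transcription factors: SREBF2 encodes SREBP2, known mainly for the sterol genes, and SREBF1 encodes SREBP1, known mainly for the fatty acid genes. When membrane sterols are high, INSIG1 holds the SREBP complex in the endoplasmic reticulum, and INSIG1 is itself an SREBP target, so its mRNA is often read as a gauge of the pathway. The active form of an SREBP is made by cleavage of the protein, which an mRNA level does not show.

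The background level was 4.47 log2 units, the 95th percentile of 75 probe sets of genes known from other tissues. A total of 13585 genes exceeded it in at least 1 line and are the genes called above background. In each line 9810 to 10365 genes exceeded it. The 8 colorectal epithelial markers (EPCAM, CDH1, KRT8, KRT18, KRT20, VIL1, CDX2 and LGALS4) were all above it in 8 lines, but in 1 of 8 in MDST8, 2 in COLO320HSR, 3 in HUTU80 and 4 in RKO, and their summed level ran from 36.1 in MDST8 to 94.9 in SNUC1. Leukocyte and endothelial markers were above it for at most 1 of 3 in any line. Of the 28 pathway genes 26 were above background in all 18 lines, the exceptions being FADS1 in 14 lines and FADS2 in 16. Their median SD over lines was 0.61, the same as the 0.61 of all genes above background. Levels of different probe sets cannot be set against each other, so each gene is compared only between lines.

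Promoter sequence was available from RefSeq (GRCh38.p14) for 25 of the 29 genes, as 250 bases before and 50 after the gene start. Both strands were searched for the sterol regulatory element TCACNCCAC, the SREBP E-box TCACNTGA, the NF-Y box CCAAT and the GC box GGGCGG. The sterol regulatory element was matched in 1 of the 25, SREBF2 itself, against 1.39% of 27305 genes with a promoter in the table. The E-box was matched in EBP and INSIG1, against 4.65% of genes. The NF-Y box, bound by a factor known to act beside SREBPs, was matched in 13 of 15 sterol enzymes (not in PMVK or CYP51A1), 4 of 6 fatty acid enzymes and 3 of 4 of the regulators and carrier, together 20 of 25, against 39.7% of genes. The GC box was matched in 24 of 25, against 48.3%. A match describes the letters only, and the absence of one says nothing of the factor.

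The promoters of SREBF2 (plus strand, chr22:41832855-41833104) and HMGCS1 (minus strand, chr5:43313413-43313662) are shown because, of the listed genes, these followed the sterol arm most closely below. The stretch between MVK and MMAB (plus strand, chr12:109573505-109573793) is shown because the genes start from it in opposite directions. All 3 were chosen after the values were seen, all are written 5′ to 3′, and capitals mark the sterol regulatory element in SREBF2 and the NF-Y box, as CCAAT or its reverse complement ATTGG, in all of them.
SREBF2: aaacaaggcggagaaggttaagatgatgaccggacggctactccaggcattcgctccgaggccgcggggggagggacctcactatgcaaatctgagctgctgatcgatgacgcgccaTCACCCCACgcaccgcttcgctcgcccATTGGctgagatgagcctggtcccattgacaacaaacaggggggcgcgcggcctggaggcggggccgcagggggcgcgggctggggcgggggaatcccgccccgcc
HMGCS1: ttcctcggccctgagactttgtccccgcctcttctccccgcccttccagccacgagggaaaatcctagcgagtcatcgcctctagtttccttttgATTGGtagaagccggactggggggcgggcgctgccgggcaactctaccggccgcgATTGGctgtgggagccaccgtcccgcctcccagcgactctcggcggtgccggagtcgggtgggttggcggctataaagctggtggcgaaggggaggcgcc
MVK-MMAB: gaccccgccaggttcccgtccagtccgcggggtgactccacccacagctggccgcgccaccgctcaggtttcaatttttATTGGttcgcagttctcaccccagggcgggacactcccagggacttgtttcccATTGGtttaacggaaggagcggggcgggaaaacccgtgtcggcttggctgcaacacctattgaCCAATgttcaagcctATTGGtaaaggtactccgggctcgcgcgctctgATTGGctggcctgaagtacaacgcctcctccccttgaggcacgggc
The SREBF2 stretch holds 1 sterol regulatory element and 1 NF-Y box, the HMGCS1 stretch holds 2 NF-Y boxes, and the MVK-MMAB stretch holds 5.

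The early sterol enzymes, from acetyl-CoA to farnesyl diphosphate, were highest in COLO320HSR for 6 of 7 genes and lowest in RKO for 3. ACAT2, which joins 2 acetyl-CoA units, ran from 8.93 log2 units in LS513 to 10.78 in COLO320HSR, with a median of 9.44. HMGCS1, the synthase that makes HMG-CoA, ran from 7.28 in RKO to 10.12 in COLO320HSR, with a median of 9.17. SW48 at 7.85 and RKO were the low lines for HMGCS1, and OUMS23 at 9.86 came next to COLO320HSR. MVK, the mevalonate kinase, ran from 5.31 in CAR1 to 7.17 in COLO320HSR, around a median of 5.84. PMVK, the next kinase, ran from 7.69 in SW1463 to 9.31 in COLO320HSR, around a median of 8.52. Both kinases thus peaked in COLO320HSR, but their low ends lay in different lines. MVD, the decarboxylase that makes isopentenyl diphosphate, ran from 4.47 in RKO, at the background level, to 6.51 in KM12, with a median of 5.74. IDI1, the isomerase of that product, ran from 9.26 in CAR1 to 11.43 in COLO320HSR, with a median of 10.57. RKO was the next lowest line for IDI1, at 9.59. FDPS, which makes farnesyl diphosphate, ran from 9.64 in RKO and 9.68 in NCIH716 to 11.22 in COLO320HSR, with a median of 10.59. The 4 genes IDI1, FDPS, HMGCS1 and MVD thus shared RKO among their lowest 2 lines.

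The late sterol enzymes, from squalene to cholesterol, were less uniform. SQLE, the squalene epoxidase and a rate-limiting step, was at 12.98 in NCIH716, with OUMS23 next at 11.23, a median of 10.29 and a low of 9.53 in LS180. NCIH716 stood alone at the top for SQLE, although it was below the mean of the other lines for 12 of 17 sterol enzymes. Of all genes above background, 44.2% were above that mean in NCIH716. LSS, which closes the ring to lanosterol, ran from 7.63 in RKO to 9.67 in MDST8, with a median of 8.56. CYP51A1, the lanosterol demethylase, ran from 9.26 in OUMS23 to 11.11 in SNUC1, with a median of 10.44. OUMS23 was above the mean of the other lines for 14 of 17 sterol enzymes, against 45.0% of all genes above background. It was the low line for CYP51A1, with NCIH716 next at 9.88. TM7SF2, a sterol reductase, ran the opposite way to most of the arm: COLO320HSR was lowest at 4.98 and HUTU80 highest at 7.45, around a median of 6.43. MSMO1, a methyl sterol oxidase, was low in LS180 and NCIH716, both at 9.27, and highest in CL40 at 11.12, with a median of 10.49. NSDHL, which works with it on the same methyl groups, ran from 7.42 in SW948 to 9.50 in RCM1, with COLO320HSR next at 9.20 and a median of 7.84. MSMO1 and NSDHL therefore peaked in different lines. HSD17B7, read by a probe set of a type that can also bind related transcripts, ran from 7.32 in RKO to 9.86 in COLO320HSR, with a median of 8.61. EBP, the sterol isomerase, ran from 9.17 in MDST8 to 11.82 in COLO320HSR, with a median of 10.24. SC5D, the desaturase of the last steps, ran from 7.98 in HUTU80 to 10.67 in SNUC1, with a median of 9.72. HUTU80 and NCIH716 were its low lines. DHCR7, the reductase that yields cholesterol, was 7.22 in RKO, next 8.79 in NCIH716, and up to 10.27 in KM12, with a median of 9.44. RKO stood apart from all 17 other lines for DHCR7.

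In the fatty acid arm ACLY, ACACA and FASN had SDs over lines of 0.33, 0.44 and 0.53, below the median of all genes, while both front-end desaturases, FADS1 and FADS2, were near background in some lines and bright in others. ACLY, which supplies cytosolic acetyl-CoA, ran from 10.65 in SW48 to 11.90 in NCIH716 and 11.88 in COLO320HSR, with a median of 11.10. ACACA, which makes malonyl-CoA, ran from 8.36 in LS513 to 10.09 in COLO320HSR, around a median of 9.16. FASN, the fatty acid synthase, ran from 6.24 in CAR1 to 8.33 in HCT116, around a median of 7.27. These 3 enzymes of the core route had their low end in 3 different lines. SCD, which makes monounsaturated fatty acids, ran from 10.01 in RKO to 12.30 in SW1463, with a median of 11.44. ELOVL6, which lengthens palmitate, ran from 6.46 in HUTU80 to 9.54 in COLO320HSR, with a median of 8.36. RKO, the lowest line for SCD, was the second highest for ELOVL6, at 9.37.

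FADS1, the delta-5 desaturase of polyunsaturated fatty acids, had the widest range of the 28 genes: 3.48 in RKO to 9.94 in MDST8, with a median of 8.06. It was below background in RKO, LS513 at 3.71, SNUC1 and SW48, which makes MDST8 at least 44.5-fold higher than these lines when they are set at the background level. Its SD of 2.28 exceeded that of 96.5% of genes above background. FADS2, the delta-6 desaturase and its genomic neighbour, ran from 4.37 in SNUC1 to 9.14 in SW1463, with a median of 5.04. Only SW1463, KM12, LS180, COLO320HSR and OUMS23 were above 6 for FADS2. MDST8, the highest line for FADS1, was not among them. Over the 18 lines FADS1 and FADS2 correlated at r = 0.41 (rho = 0.40), and at 0.40 without LS513 and RKO.

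**Figure D1:**
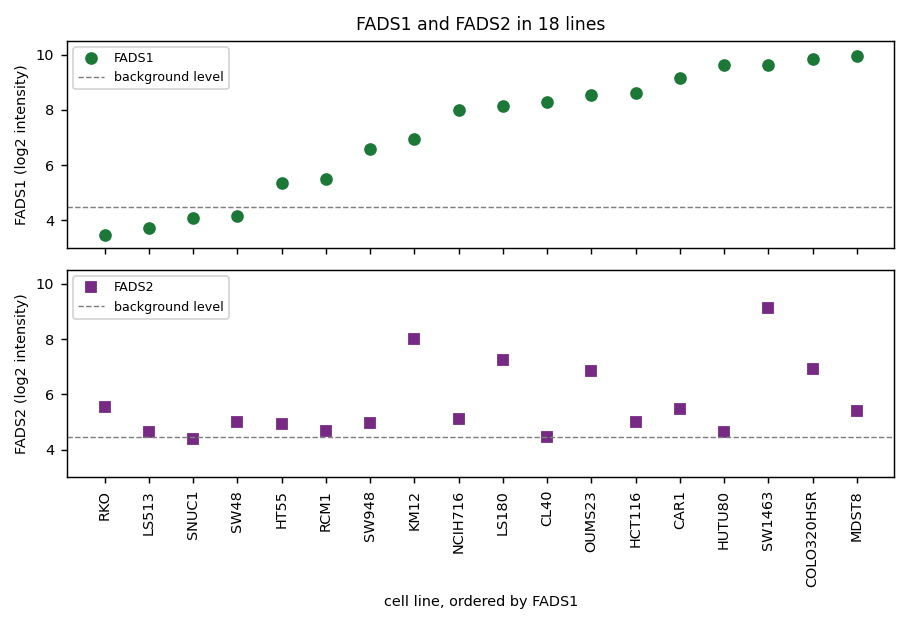
Log2 intensity of FADS1 (upper plot) and FADS2 (lower plot) in 18 cell lines ordered by FADS1; points are single arrays and the dashed line is the background level of 4.47. FADS1 lay below it in 4 lines, and FADS2 was highest in SW1463 (9.14) but near it in several lines where FADS1 was high. Levels of the 2 genes cannot be set against each other.

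Among the regulators, RKO was the lowest line for INSIG1 and SREBF2. INSIG1 ran from 8.83 in RKO, with HUTU80 next at 9.50, to 11.78 in SW1463, with a median of 10.95. SREBF2 ran from 5.71 in RKO, with NCIH716 next at 6.17, to 7.54 in COLO320HSR, with a median of 6.93. RKO and NCIH716 were also the lines with the lowest sterol arm. SREBF1 ran from 5.69 in CAR1 to 7.99 in LS513 and 7.94 in HT55, with a median of 6.74. STARD4, which carries sterols between membranes, ran from 7.16 in SNUC1 to 10.31 in LS513, with a median of 8.97.

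Mean correlation among members was higher in the sterol arm than in the fatty acid arm, by a margin that depended on the probe set used. The mean pairwise Pearson correlation of 17 sterol enzymes over the 18 lines was 0.34, with 116 of 136 pairs positive and 47 pairs (34.6%) at 0.5 or above. Over all pairs of genes above background the mean was 0.0040, with 4.10% of pairs at 0.5 or above. The 7 fatty acid enzymes had a mean of 0.23, with 3 of 21 pairs (14.3%) at 0.5 or above. Between the arms the mean was 0.21, with 12 of 119 pairs (10.1%) at 0.5 or above. Leaving out each line in turn gave 0.28 (without RKO) to 0.37 (without NCIH716) for the sterol arm and 0.16 (without COLO320HSR) to 0.27 (without CAR1) for the fatty acid arm. Between the arms it gave 0.12 without COLO320HSR and up to 0.25 without NCIH716. With the probe set of largest SD for each gene, the means were 0.26 for the sterol arm and 0.24 for the fatty acid arm. With only the enzymes above background in all lines they were 0.34 and 0.28. Within the 8 RPMI-1640 lines the means were 0.32 for the sterol arm, 0.20 for the fatty acid arm and 0.087 between the arms, against 0.33, 0.20 and 0.21 within the 10 DMEM/F-12 lines. These points share the 18 arrays and their scaling, and no test of the difference between the arms was made.

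Within the sterol arm the mean correlation was higher among the early enzymes than among the late ones. This split was not among the planned results and was not repeated with lines left out. The 7 enzymes up to FDPS had a mean correlation of 0.52 (21 pairs), and the 10 enzymes from SQLE on had 0.22 (45 pairs). HMGCS1 followed the mean of the other sterol enzymes at r = 0.86, a likeness that no gene above background outside the arm exceeded. IDI1 and LSS followed it at 0.79, MVK at 0.78, HSD17B7 at 0.76, MVD at 0.74, DHCR7 at 0.72, FDPS at 0.70 and ACAT2 at 0.69. MSMO1, NSDHL, SC5D and EBP came after them, at 0.61, 0.55, 0.51 and 0.47. CYP51A1 at 0.34, PMVK at 0.27 and SQLE at 0.25 followed it weakly, and TM7SF2 ran against it at -0.37. The late enzymes LSS, HSD17B7 and DHCR7 were thus among the close ones, and the early PMVK was among the weak ones. Of the regulators, SREBF2 followed the sterol arm at 0.81 and INSIG1 at 0.63, whereas SREBF1 at 0.11 and STARD4 at 0.08 did not track it.

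In the fatty acid arm, ACLY followed the mean of the other enzymes at r = 0.65 and FASN at 0.63. FADS1 at 0.40, ELOVL6 at 0.30, ACACA and FADS2 at 0.28, and SCD at 0.23 followed it less. ACACA and FASN, successive enzymes of the route, correlated at 0.22 (rho = 0.31), and at -0.02 without COLO320HSR and LS513. Some close pairs crossed the arms. SQLE with ACLY, the closest of them, reached r = 0.80 (rho = 0.78), and 0.72 without NCIH716 and OUMS23. SCD with IDI1 reached r = 0.76 (rho = 0.69), and 0.66 without LS180 and RKO. ACAT2 with LSS, within the sterol arm, reached r = 0.76 (rho = 0.67), and 0.71 without COLO320HSR and OUMS23.

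**Figure D2:**
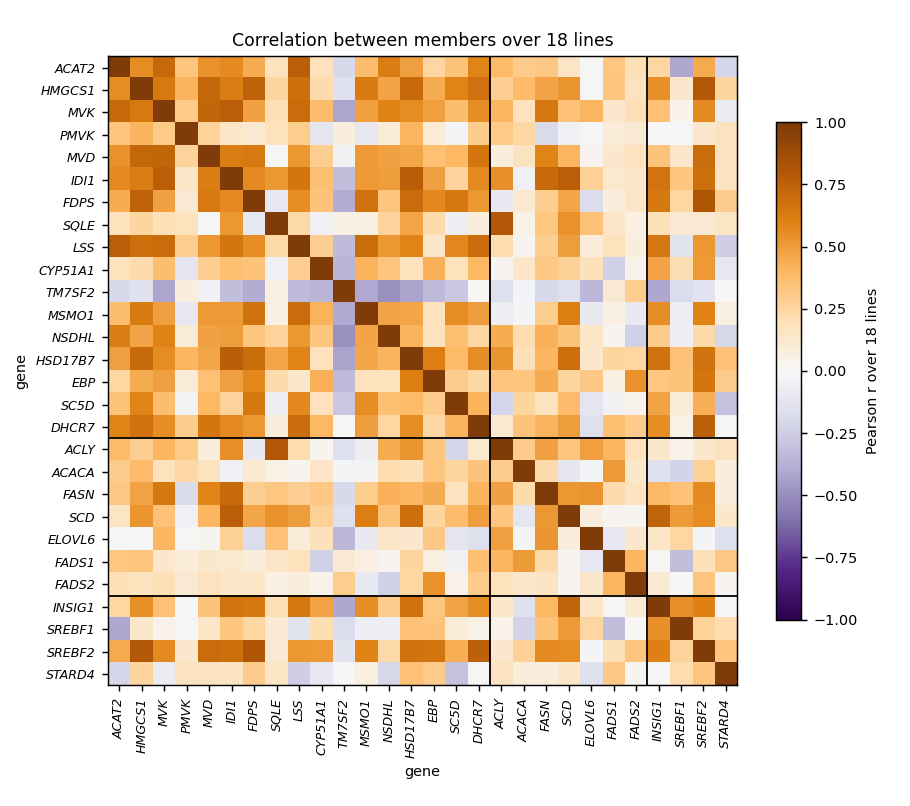
Pearson correlation over 18 lines between the 28 measured genes (both axes), with black lines between the sterol arm, the fatty acid arm, and the regulators and carrier. The upper left block is mostly orange (positive; mean 0.34), apart from TM7SF2, PMVK and SQLE; the fatty acid block is paler (mean 0.23), and SREBF2 is orange along nearly the whole sterol arm.

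The position of a line in an arm was the median, over the enzymes, of its difference from the mean of the other 17 lines. RKO was lowest in the sterol arm at -0.81, with 5 of 17 enzymes lower by 1 log2 unit or more, against 11.4% of all genes above background. In RKO 16 of 17 enzymes were below the other lines, while 49.7% of all genes above background were above them. In RKO, DHCR7 differed from the mean of the other lines by -2.34 and HMGCS1 by -1.84. RKO was the lowest of the 18 lines for 10 of the 28 genes, against 4.6% of all genes above background. They were HMGCS1, MVD, FDPS, LSS, HSD17B7, DHCR7, SCD, FADS1, INSIG1 and SREBF2. NCIH716 came next at -0.55, with 3 of 17 enzymes lower by 1 unit or more, against 12.4% of all genes, while SQLE was 2.60 units higher in NCIH716 and the 1 enzyme past that step upward, against 11.5%. HUTU80 followed at -0.34, with 1 of 17 lower by 1 unit or more (SC5D, -1.70), against 13.4%.

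At the upper end COLO320HSR was highest at 0.83, with 6 of 17 enzymes higher by 1 unit or more, against 11.2% of all genes above background. These were EBP (1.57), ACAT2, HSD17B7, MVK, NSDHL and HMGCS1 (1.17), and TM7SF2 went the other way at -1.38. COLO320HSR was the highest of the 18 lines for 11 of the 28 genes, against 8.17% of all genes. OUMS23 was at 0.61, with 2 of 17 higher by 1 unit or more (TM7SF2 and SC5D), against 11.8%. SNUC1 was at 0.58, with 2 of 17 higher (NSDHL and SC5D), against 9.5%. For OUMS23 and SNUC1 these shares of enzymes past the step were near those of all genes.

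In the fatty acid arm COLO320HSR was again highest at 0.96. Of its enzymes 3 of 7 were higher by 1 unit or more (FADS1, FADS2 and ELOVL6), against 11.2% of all genes. HCT116 followed at 0.49, with 2 of 7 higher (FADS1 and FASN), against 8.58% of all genes. NCIH716 was at 0.39, with ELOVL6 alone past the step, against 11.5%. RKO was lowest at -0.65, with FADS1 and SCD lower by 1 unit or more, against 11.4%, and ELOVL6 higher by 1.13, against 9.17%. Its last place depended on the probe set: RKO was at -0.13 with the largest-SD probe set, against -0.67 for LS513 and -0.54 for SW48, and at -0.25 with the mean of all probe sets, against -0.53 for LS513 and -0.56 for SW48. SW48 was at -0.54, with FADS1 alone lower by 1 unit or more, against 8.05%. All 7 enzymes were below the other lines in SW48, while 51.7% of all genes were above them. LS513 was at -0.45, with FADS1 and FADS2 lower by 1 unit or more, against 7.6%. With 7 enzymes, a single one is a large share of the arm.

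**Figure D3:**
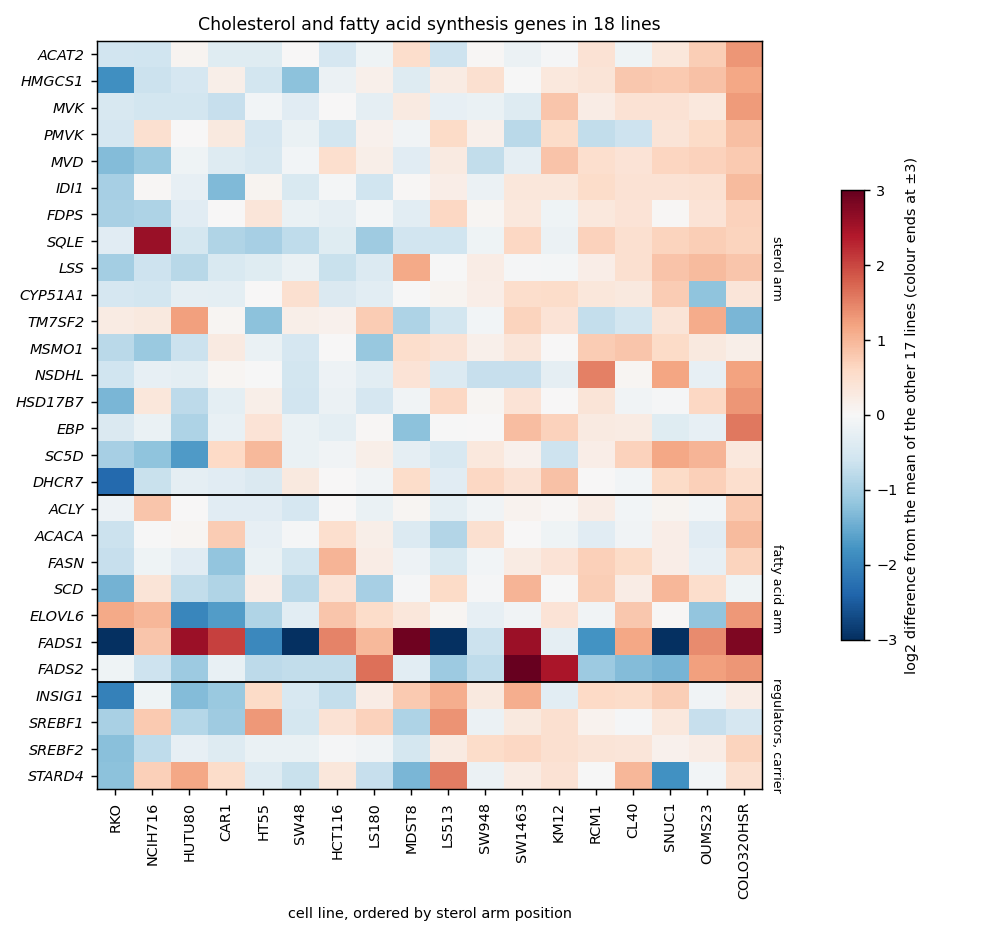
Log2 difference of each gene (rows) in each line (columns) from the mean of the other 17 lines; red is higher and blue lower, colour ends at 3 units either way, and lines are ordered by sterol arm position. RKO on the left is blue in 16 of 17 sterol enzymes and COLO320HSR on the right is red in 16 of 17. Of all genes above background, 49.7% were higher than the other lines in RKO and 47.1% in COLO320HSR. Dark red cells include SQLE in NCIH716 (2.60) and FADS2 in SW1463 (3.66). FADS1 is dark blue in some lines, dark red in others, and paler in lines such as KM12 and SW948.

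The arms did not place the lines in the same order. Their positions had the same sign in 12 of 18 lines and correlated at r = 0.53 (rho = 0.44). Without RKO and COLO320HSR, the ends of both arms, the value was 0.16, so its size over all lines depended on them. Within RPMI-1640 the correlation was 0.24 over 8 lines, COLO320HSR among them. Within DMEM/F-12 it was 0.75 over 10 lines, RKO among them. Neither value was recomputed without that line. NCIH716 and HCT116 were low in the sterol arm (-0.55 and -0.16) and high in the fatty acid arm (0.39 and 0.49). SREBF2 correlated with the sterol position at r = 0.84 (rho = 0.81), and at 0.74 without NCIH716 and RKO, and with the fatty acid position at 0.44. INSIG1 correlated with the sterol position at r = 0.59 (rho = 0.53), and at 0.34 without HUTU80 and RKO. SREBF1 and STARD4 correlated with it at 0.05 each.

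**Figure D4:**
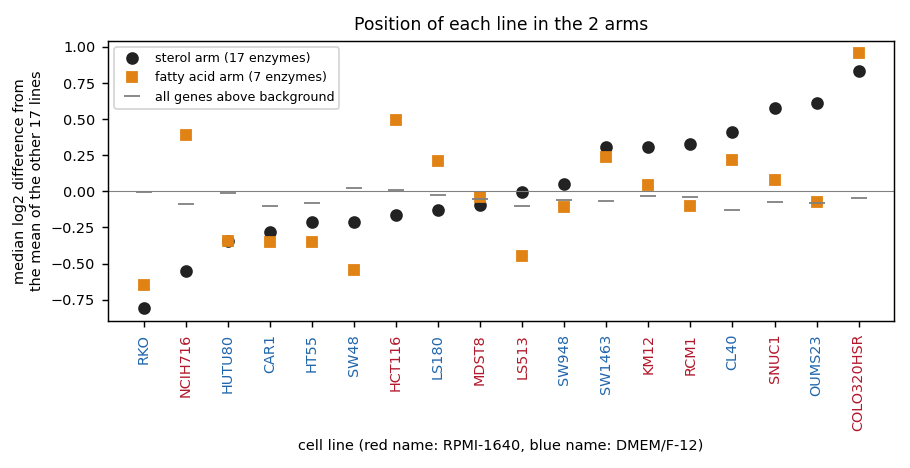
Position of each line (median log2 difference from the other 17 lines) in the sterol arm (black circles), the fatty acid arm (orange squares) and over all genes above background (grey dashes), with RPMI-1640 lines named in red and DMEM/F-12 lines in blue. RKO is lowest in both arms (-0.81 and -0.65), though not in the fatty acid arm with the mean of all or the largest-SD probe set (-0.25 and -0.13), and COLO320HSR is highest in both (0.83 and 0.96), while NCIH716 and HCT116 have opposite signs in the 2 arms.

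Each gene above background was then regressed on the level of a regulator over the 18 lines with limma, with Benjamini-Hochberg adjustment over 13584 genes. A slope is the log2 difference of the gene for 1 log2 unit of the regulator. On SREBF2, 0 of 27 genes passed an adjusted p of 0.05, as did 1 gene of all (0.00736%). At an unadjusted p under 0.05, 14 of 27 had a positive slope and none a negative one, against 4.92% of all genes with a positive slope. These were 11 of 17 sterol enzymes, FASN, SCD and INSIG1. FDPS had a slope of 0.73 ± 0.13 (SE; limma adjusted p = 0.116), HMGCS1 1.18 ± 0.22 (adjusted p = 0.12) and DHCR7 1.07 ± 0.23 (adjusted p = 0.129). The median slope was 0.66 over the sterol enzymes and 0.61 over the fatty acid enzymes, against -0.04 over all genes. Of the sterol enzymes 16 of 17 had a positive slope, against 45.6% of all genes; TM7SF2 had -0.20 ± 0.36. The fatty acid median was -0.03 within RPMI-1640 (3 of 7 positive) and 0.61 within DMEM/F-12 (6 of 7). Without HT55, FDPS passed the adjusted threshold (limma adjusted p = 0.0483), as did 3 genes with a positive and 1 with a negative slope among all 13584. Without RKO the count at the unadjusted threshold was 11, against 4.26% of all genes with a positive slope. Of the 8 epithelial markers 5 had a positive slope on SREBF2 at an unadjusted p under 0.05, with CDH1 at 3.81 ± 1.35 and LGALS4 at 4.54 ± 1.68. Of the 5 mesenchymal markers ZEB1 had a negative one, at -3.35 ± 1.07. The part of these markers in the slopes of the pathway genes was not tested.

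**Figure D5:**
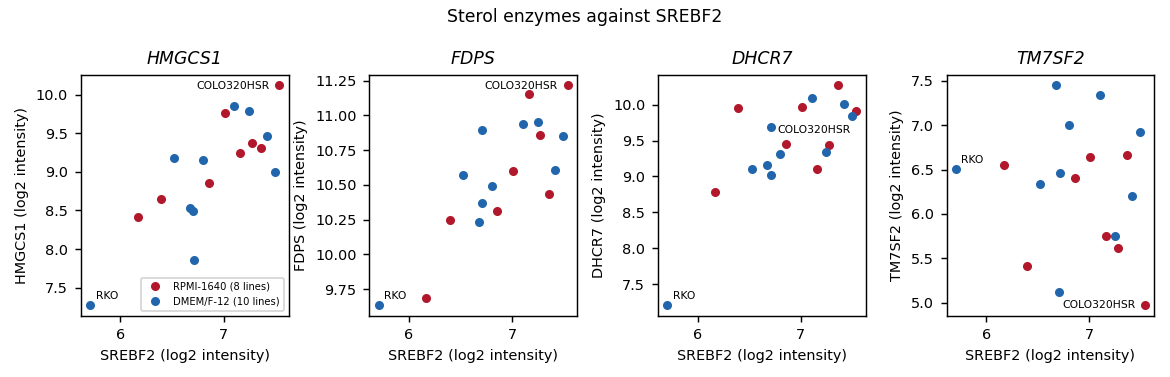
HMGCS1, FDPS, DHCR7 and TM7SF2 (y axes) against SREBF2 (x axes), in log2 intensity; points are the 8 RPMI-1640 lines in red and the 10 DMEM/F-12 lines in blue. RKO is at the low end of SREBF2 and of the first 3 enzymes, and COLO320HSR is at the high end of SREBF2 and the low end of TM7SF2.

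On INSIG1, 0 of 27 genes passed the adjusted threshold in limma, as did 20 genes of all (0.147%). At an unadjusted p under 0.05, 12 of 27 had a positive slope and none a negative one, against 7.94% of all genes. They were 9 of 17 sterol enzymes, SCD, SREBF1 and SREBF2. SCD had the slope nearest the threshold, 0.61 ± 0.13 (SE; limma adjusted p = 0.0657), followed by IDI1 with 0.43 ± 0.12 (adjusted p = 0.0928) and HSD17B7 with 0.46 ± 0.13 (adjusted p = 0.0953). The median slope was 0.27 over the sterol enzymes and 0.16 over the fatty acid enzymes, against -0.03 over all genes. The fatty acid median turned direction between media, at -0.50 within RPMI-1640 (1 of 7 positive) and 0.39 within DMEM/F-12 (7 of 7). Without MDST8 the listed genes past the adjusted threshold were SCD, FDPS, HSD17B7 and IDI1, but 2.61% of all genes with a positive and 1.83% with a negative slope passed it too. Without LS180 or COLO320HSR it was SCD alone, beside 9 positive and 7 negative of all genes without LS180, and 84 and 54 without COLO320HSR. Without RKO the count at the unadjusted threshold was 6, against 7.62% of all genes. Without both RKO and HUTU80 it was 2 of 27 with a positive slope and 1 with a negative one, against 5.70% of all genes with a positive slope, a share near that of all genes. Epithelial markers had slopes on INSIG1 too: VIL1 had one of 3.38 ± 0.79 (adjusted p = 0.0751), LGALS4 3.58 ± 0.86 and KRT20 3.39 ± 0.84, with 4 of 8 markers at an unadjusted p under 0.05. Of the 5 mesenchymal markers only ZEB1 passed that threshold, at -1.65 ± 0.70. The part of the markers in the slopes of the pathway genes was not tested.

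On SREBF1, 0 of 27 genes passed the adjusted threshold in limma, as did 46 genes of all (0.339%). At an unadjusted p under 0.05, 2 of 27 had a positive slope and none a negative one, against 7.99% of all genes, a share near that of all genes. They were INSIG1, at 0.61 ± 0.22 (SE; adjusted p = 0.188), and SCD, at 0.46 ± 0.19 (adjusted p = 0.235). FASN had a slope of 0.25 ± 0.18, and the median was 0.02 over the fatty acid enzymes and 0.10 over the sterol enzymes. Within RPMI-1640 these medians were -0.20 and -0.13. There 0 genes were positive and 3 negative at an unadjusted p under 0.05, against 3.52% of all genes positive and 766 of 13584 negative. Within DMEM/F-12 the medians were 0.32 and 0.15. There 2 genes were positive and 0 negative, against 7.19% of all genes positive and 731 of 13584 negative. Without HT55 and LS513, the lines farthest from the median of SREBF1, the fatty acid median was 0.49 (6 of 7 positive) and the sterol median 0.15. In that fit 2 of 27 genes were positive at an unadjusted p under 0.05, against 5.65% of all genes. Without COLO320HSR the 2 genes of the fit on all 18 lines became 4, against 7.74% of all genes positive. Without RKO 1 gene was positive and 2 were negative, against 7.24% of all genes positive and 1032 of 13584 negative. Without CAR1 1 gene was positive and 1 negative, against 8.13% of all genes positive and 1179 of 13584 negative. Of the 8 epithelial markers 7 had a positive slope on SREBF1 at an unadjusted p under 0.05, with VIL1 at 3.78 ± 0.90, and their part was not tested. A fit in which the slope could differ between media, chosen after the data were seen, gave 0 of 27 genes past the adjusted threshold in limma for each of the 3 regulators, against 0% of all genes for INSIG1, 0.103% for SREBF2 and 0% for SREBF1. At an unadjusted p under 0.05 it gave 1 of 27 for INSIG1, against 4.07% of all genes, 2 for SREBF2, against 5.9%, and 3 for SREBF1, against 3.91%. The 1 for INSIG1 was FASN, with a slope difference of -0.89 for RPMI-1640 minus DMEM/F-12.

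The media comparison asks whether the culture groups differ; the lines in each are different lines, so medium and line cannot be told apart. In limma 0 of 28 genes passed an adjusted p of 0.05, as did 0% of all genes. At an unadjusted p under 0.05, 5 of 28 were higher in RPMI-1640 and none lower, against 1.49% of all genes with a higher level. NSDHL ran from 7.68 through a median of 8.20 to 9.50 in RPMI-1640 lines, against 7.42, 7.78 and 8.12 in DMEM/F-12 lines, a difference of 0.69 ± 0.25 (SE; limma adjusted p = 0.999). ELOVL6 ran from 8.21 through 8.67 to 9.54 in RPMI-1640 lines, against 6.46, 8.04 and 9.37 in DMEM/F-12 lines, a difference of 0.83 ± 0.37 (adjusted p = 0.999). SCD, IDI1 and ACLY differed by 0.62, 0.53 and 0.37 on the same scale. The groups overlapped for all 5 genes. The median difference was 0.33 over the sterol enzymes and 0.37 over the fatty acid enzymes, against 0.00 over all genes. The 5 genes became 3 without COLO320HSR, without CAR1 or without HUTU80, against 1.29%, 1.56% and 1.67% of all genes. The median position of the lines was 0.15 in RPMI-1640 and -0.17 in DMEM/F-12 in the sterol arm, and 0.06 and -0.22 in the fatty acid arm.

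A wider list of pathway genes was counted in the same fits, with 31 of 38 measured and 30 above background. None passed the adjusted threshold in limma on any regulator or between media with the settings used throughout. At an unadjusted p under 0.05, 6 of 30 had a positive and 2 a negative slope on INSIG1, 5 a positive and 1 a negative slope on SREBF2, and 3 each way on SREBF1. The negative slopes of all genes made up 9.86% for INSIG1, 4.82% for SREBF2 and 8.36% for SREBF1, and the positive ones are given above. ACSS2, which makes acetyl-CoA from acetate, was nearest the threshold, with a slope of 1.22 ± 0.25 on INSIG1 (SE; adjusted p = 0.0608). It passed on INSIG1 with the mean of all probe sets (limma adjusted p = 0.0432), the largest-SD probe set (0.0239) and medium as a second term (0.0308), and without MDST8, COLO320HSR, NCIH716 or CAR1. SOAT1, SCD5 and GGPS1 passed on INSIG1 without MDST8, and SOAT1 passed on SREBF1 without NCIH716. In that SREBF1 fit 117 positive and 63 negative slopes of all genes passed. SOAT1, which esterifies cholesterol for storage, had negative slopes on all 3, of -1.73 on INSIG1, -2.41 on SREBF2 and -1.83 on SREBF1. ACSS2 and SOAT1 were picked after their values were seen. Of the machinery that carries and cleaves the SREBPs, the escort SCAP ran from 6.63 in NCIH716 to 7.56 in SW48. The protease MBTPS1 ran from 6.51 in SW948 to 7.95 in HCT116, and the protease MBTPS2 from 8.11 in SW948 to 10.17 in COLO320HSR.

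Outside the listed genes, those most like the mean of the sterol enzymes over the 18 lines, among 13557 genes, were MMAB (r = 0.84), ATP6V1A (0.84), ATG3 (0.77), SLC35A5 (0.76) and MAGI3 (0.75). MMAB, an enzyme of vitamin B12 metabolism, shares the start region printed above with MVK. It ran from 6.35 in RKO to 9.14 in COLO320HSR and correlated with MVK at r = 0.65 (rho = 0.65), and at 0.43 without COLO320HSR and KM12. Its slope on SREBF2 was 1.11 ± 0.23 (SE; limma adjusted p = 0.129), beside 0.58 ± 0.23 for MVK (adjusted p = 0.44). For the fatty acid arm the most like genes were NHS (0.81), DEPDC4 (0.81), MEIG1 (0.74), ESD (0.74) and GRB14 (0.73). DEPDC4 peaked at 4.59, close to the background level.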

How the data were processed

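Total RNA of 18 cell lines was measured on 1 array each. Per the submitters' processing notes, the authors used RMA and affy, which give log2 intensities, and the deposited table holds values on that scale. Tool versions were not stated in these sources. RMA scales all arrays together, and the values were used without further scaling. Of 54613 probe sets, 40914 carry 1 gene in the array annotation and were used. The listed genes, the wider list, the tests and the alternatives were chosen with earlier results of these data known. All listed genes are named, with the 3 highest and 3 lowest lines and the 5 most similar genes of each arm. Correlations are Pearson's unless given as rho. Slopes and medium differences were fitted with limma 3.58.1 (R 4.3.3) with an intensity trend, over genes above background in at least 1 line, with Benjamini-Hochberg adjustment; the fit was tested on simulated data. Each line was measured once, so p-values measure the spread between lines, and precision is limited by how many arrays there are. Alternatives covered the probe set per gene, scaling, limma settings, the background filter, the medium and the lines used.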

Additional observations from a re-analysis of the deposited data

Results flagged for a closer look

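Within each medium the highest and lowest line of each of the 28 genes was compared with its nearest neighbour relative to the range of the group. Of 56 groups 4 had a line set apart by Dixon's 95% limit. Chance alone sets apart about 1 in 20, a share near the 4 of 56. SQLE was 12.98 in NCIH716, with the next RPMI-1640 line, RCM1, at 11.18. MSMO1 was 9.27 in the same line, NCIH716, with HCT116 next at 10.34. DHCR7 was 7.22 in RKO, with the next DMEM/F-12 line, HT55, at 9.02. ACAT2 was 10.22 in OUMS23, with HUTU80 next at 9.59. NCIH716 was thus apart in opposite directions for SQLE and MSMO1.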

How the results depend on the processing

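Across 23 results and 179 alternatives other than leaving out lines, 159 kept the value within the tolerance and 20 did not. The probe set with the largest SD gave fatty acid positions of -0.13 for RKO, -0.67 for LS513, 0.84 for NCIH716, 0.79 for HCT116 and 1.32 for COLO320HSR, and the mean of all probe sets gave -0.25 for RKO and 0.91 for NCIH716, so that RKO was no longer the lowest line of that arm. Between the arms the mean correlation within RPMI-1640 was 0.087, an alternative chosen after the data were seen. Genes with a positive slope at an unadjusted p under 0.05 numbered, on INSIG1, 7 with the largest-SD probe set (8.54% of all genes), 2 without RKO and HUTU80 (5.70%) and 0 within RPMI-1640 (3.17%). On SREBF2 they numbered 8 with the mean of all probe sets (2.27%), 9 without RKO and NCIH716 (3.90%), 6 within RPMI-1640 (2.51%) and 9 within DMEM/F-12 (4.55%). On SREBF1 they numbered 0 with the mean of all probe sets (7.48%) or within RPMI-1640 (3.52%). They numbered 1 with the largest-SD probe set (7.94%) or with medium as a second term (8.94%). Between media, 3 genes were higher in RPMI-1640 with the largest-SD probe set (1.38% of all genes). The causes were not tested, and the fits on part of the lines also had fewer lines. Leaving out each line in turn gave adjusted calls of 0 to 4 on INSIG1, 0 to 1 on SREBF2, 0 on SREBF1 and 0 between media. Unadjusted counts ran from 6 to 13 on INSIG1, 11 to 16 on SREBF2, 1 to 4 on SREBF1 and 3 to 7 between media. The shares of all genes ran from 6.44% to 10.3%, 3.59% to 7.30%, 6.86% to 9.64% and 1.21% to 2.11%. Mean correlations ran from 0.28 to 0.37 in the sterol arm, 0.16 to 0.27 in the fatty acid arm and 0.12 to 0.25 between them. Signal over background limits FADS1, FADS2 and MVD in the lines where they lay at or below 4.47.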
